A study of Mus musculus with 10 samples.

Results

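The nuclear genes of oxidative phosphorylation were followed in mouse back skin over 48 hours after cyclophosphamide. They were chosen by symbol: the rows of the deposited table whose symbol starts with Ndufa, Ndufb, Ndufc, Ndufs or Ndufv, with Sdh followed by a to d, with Uqcr, with Cox4 to Cox8, or with Atp5, leaving out the Ndufaf assembly factors. These were 89 of 24331 genes. Placed by symbol alone, 38 fell under complex I, 4 under complex II and 4 under its assembly factors, 8 under complex III, 18 under complex IV and 17 under complex V. A symbol does not show that the product is a subunit of that complex, so these groups may hold genes that belong elsewhere. All groups were full-thickness back skin of male wild type C57BL/6 mice aged 7 to 8 weeks, in which removal of the hair with wax had started a new hair growth phase (anagen). The 0h group was taken before cyclophosphamide, a prodrug whose products crosslink DNA, and the 6h, 12h, 24h and 48h groups after 1 intraperitoneal dose of 150 mg/kg in PBS on day 9 after depilation. Each of the 5 times had 2 RNA-seq libraries, 10 in all, and since no label says that both were from different animals, the p-values measure only how far libraries of 1 time differ, which may be technical. No mice given vehicle were among the samples, so time since the drug and time since depilation cannot be told apart. All later times were compared with the same 0h libraries.

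Oxidative phosphorylation is carried out by large protein complexes of the inner mitochondrial membrane. Complex I (NADH dehydrogenase) and complex II (succinate dehydrogenase) pass electrons to ubiquinone, complex III passes them to cytochrome c, complex IV (cytochrome c oxidase) passes them to oxygen, and complex V (ATP synthase) uses the proton gradient to make ATP. Some subunits of complex IV exist as a widely expressed form and a form typical of heart and skeletal muscle, and full-thickness skin of the mouse holds a sheet of striated muscle, the panniculus carnosus, beneath the dermis.

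The libraries are named here by their number in the table, 2 and 3 at each time, while the labels number the replicates 1 and 2. Values are FPKM, in which fragments are counted relative to transcript length and to all mapped fragments, so that levels of genes of different length can be compared; the depth is unknown. FPKM summed over all genes lay between 862653 and 978550 per library. Pearson's r between libraries over log2(FPKM + 1), a description across genes, was 0.98 to 0.99 within a time and 0.97 to 0.99 between times. The 11 markers of epidermis, hair and dermis were all expressed, with Krt14, a keratin of basal epidermis, at a mean of 2359 FPKM at 0h. Muscle was present as well: 24 markers of fast skeletal muscle summed to 19845 and 21636 FPKM in the 0h libraries and to 8387 to 12666 in the 8 later ones. Genes were tested with limma on log2(FPKM + 1), all times in one fit, with Benjamini-Hochberg adjustment over the 13625 genes that reached 1 FPKM in at least 2 libraries; a gene is said to have risen or fallen where the adjusted p was under 0.05. The test took in 87 of the 89 genes. The others, Cox7b2 and Cox8c, isoforms best known from testis, were at 0 FPKM except for Cox7b2 in 0h library 2 (0.4 FPKM) and Cox8c in 6h library 2 (0.9 FPKM).

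At 0h these genes were among the most highly expressed of the skin. Of the 89, 68 had a mean of at least 100 FPKM and 8 of at least 1000, and 68 were among the 1000 highest of the tested genes. Atp5e, the epsilon subunit of ATP synthase, was the highest at 2320 ± 382 FPKM (SD, n = 2), followed by Cox6a1, a subunit of complex IV, at 2238 ± 308. These 2 levels did not differ beyond their spread. Within complex I the range ran from Ndufa3, a small accessory subunit, at 1443 ± 50.3 FPKM to Ndufs1, the largest iron-sulfur subunit, at 32.9 ± 4.16. Complex III ran from Uqcrq at 1143 ± 95.6 to the core subunit Uqcrc2 at 86.9 ± 6.75. The 4 subunits of complex II were lower and closer together, from Sdhd, one of its membrane anchors, at 80.4 ± 4.31 to Sdhb, its iron-sulfur subunit, at 141 ± 0.127. The lowest of the tested genes was Atp5s, at 3.90 ± 0.0286, followed by Sdhaf2, an assembly factor of complex II, at 9.02 ± 0.174.

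After cyclophosphamide, most of these genes lay below their 0h level at every time, by small steps of which few passed the test. At 6h none passed, with 0.044% of all tested genes past the test. At an unadjusted p under 0.05, 26 of 87 were lower at 6h and 0 higher, against 5.72% lower and 6.55% higher of all tested genes. At 12h 1 gene fell (Cox6a2), with 1.08% of all tested genes past the test and 0.8% lower, and 50 of 87 were lower at the unadjusted threshold, against 11% of all genes. At 24h 1 rose (Cox6b2) and 1 fell (Ndufa4l2), with 3.32% of all genes past the test, 1.37% higher and 1.94% lower; 20 of 87 were lower at the unadjusted threshold, against 14% of all genes. At 48h 1 rose (Cox6b2) and 4 fell (Cox6a2, Cox8b, Sdhaf3 and Sdhb), with 8.92% of all genes past the test, 4.8% higher and 4.12% lower. At the unadjusted threshold 24 of 87 were lower at 48h, against 11.8% of all genes. A share of 5 in 87 past the test at 48h is no larger than that of the whole table. An F test over all 5 times called 4 genes (Cox6a2, Cox6b2, Ndufa4l2 and Sdhd), with 7.35% of all genes called. Leaving out both 6h libraries, a choice made after seeing the data, gave 6 calls at 12h, 5 at 24h and 9 at 48h, where 1.79%, 4.36% and 10.3% of all genes passed in the same fit. Those added were Atp5g1, Cox7a1, Cox8b, Ndufs6 and Sdhd at 12h; Atp5sl, Cox8b and Sdhd at 24h; and Cox7a1, Ndufa12, Ndufb2 and Uqcrfs1 at 48h.

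The direction was shared far more widely than the calls. In the order of the 4 later times, the median log2 difference from 0h over the 87 genes was -0.28, -0.35, -0.24 and -0.23, while over all tested genes it was 0.04, -0.07, -0.10 and -0.01. Estimates were below 0 for 82, 84, 82 and 81 of the 87 at the 4 times. The 6h values rested on 1 library: without 6h library 3 the median was -0.09, with 64 of 87 estimates below 0, and without 6h library 2 it was -0.50, with 83 below 0. With each library left out in turn the medians lay between -0.42 and -0.32 at 12h, -0.29 and -0.20 at 24h, and -0.31 and -0.16 at 48h. The distance from all tested genes also depended on the 0h libraries. Without 0h library 2 the median at 24h was -0.20, against -0.13 over all tested genes. Without 0h library 3 it was -0.29, against -0.05. At 6h 46 of the 87 genes had both libraries below both 0h libraries, which 16.4% of all tested genes had. At 12h this held for 83 of 87, against 32.3% of all genes. At 24h it held for 72, against 37.2%, and at 48h for 60, against 28%. In 32 of the 87 genes all 8 later libraries were below both 0h libraries, which was so for 6.14% of all tested genes. Scaling the libraries by the median of ratios gave medians of -0.32, -0.26, -0.14 and -0.23, and leaving out the 75 hair keratin and keratin-associated genes, which took 14.3% of all FPKM at 0h and 19.7% at 24h, gave -0.25, -0.26, -0.15 and -0.17. Under these scalings and quantile normalization, 73 to 84 of the 87 estimates were below 0 at each time.

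**Figure D1:**
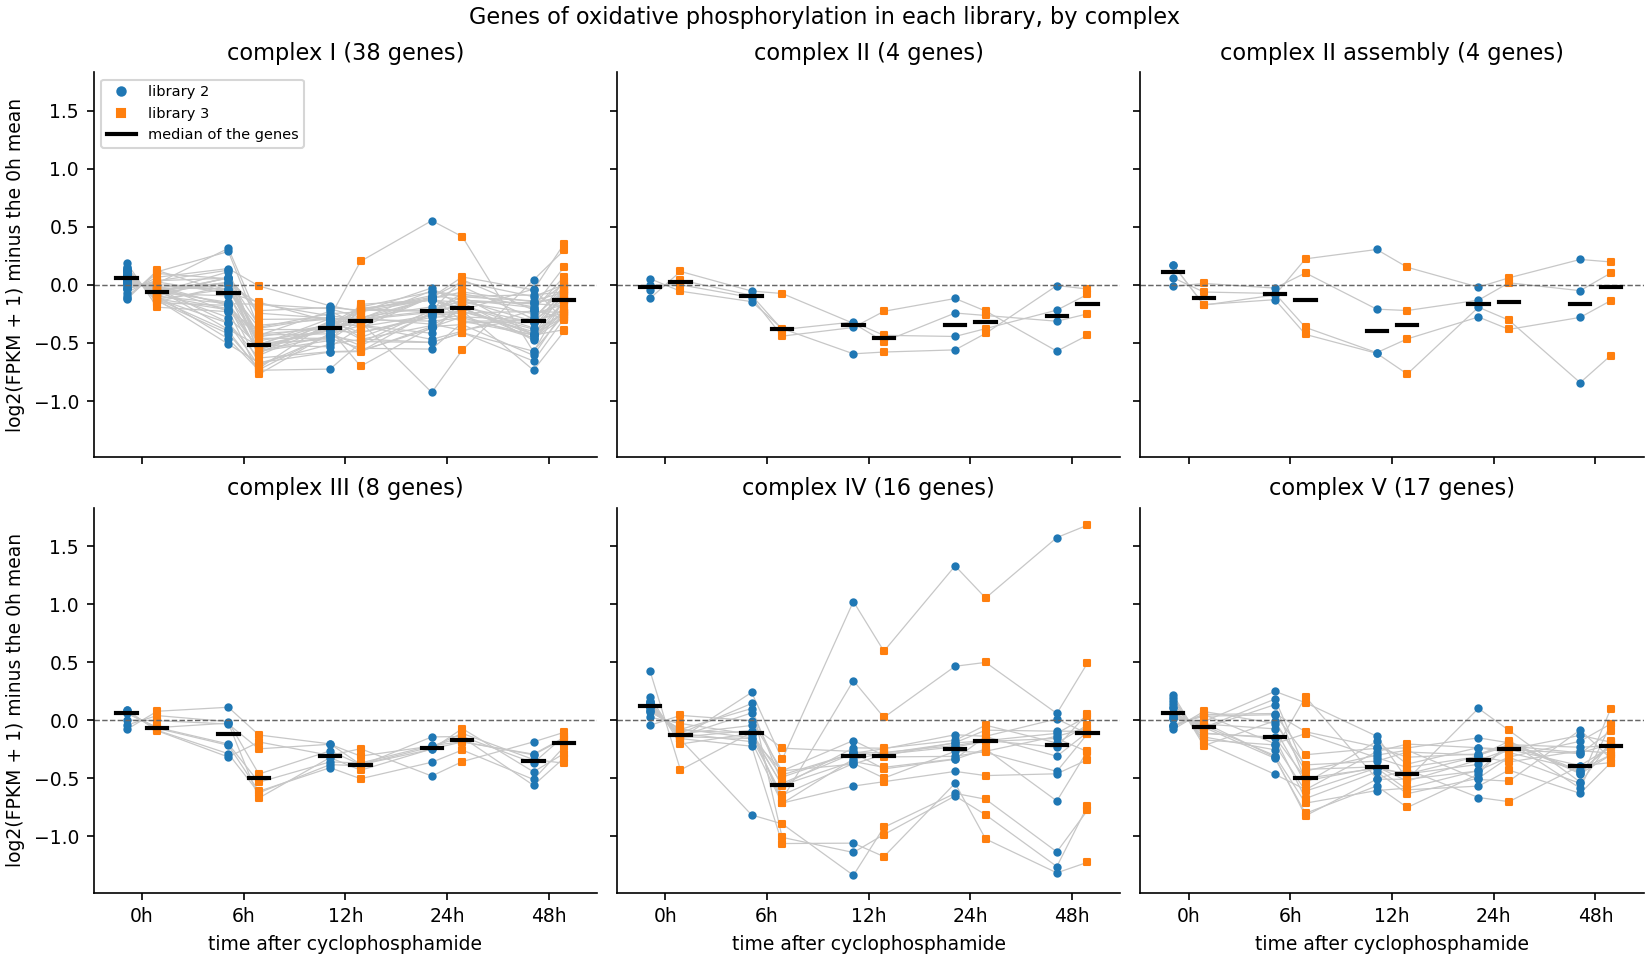
Each gene's log2(FPKM + 1) minus its 0h mean (vertical axis) in each of the 10 libraries (horizontal axis, by time), in 1 panel per complex; points are genes, grey lines link the values of 1 gene and do not pair libraries, and black bars are medians of the genes. Most genes are below 0 after 0h, 6h library 3 is lower than 6h library 2 in 82 of the 87 genes, and the gene furthest above 0 in the complex IV panel is Cox6b2.

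The 2 libraries of a time were not alike, and this touches the medians above. Of the 87 genes 82 were lower in 6h library 3 than in 6h library 2, and 74 were lower in 48h library 2 than in 48h library 3. FPKM summed over the 89 genes were 40265 and 36123 in the 0h libraries, 35040 and 25981 at 6h, 29267 and 28406 at 12h, 30943 and 32535 at 24h and 29677 and 33828 at 48h. The lowest sum was thus that of 6h library 3 and the highest that of 0h library 2. Transcript length moved with these differences. The median transcript length was 745 bases for the 87 genes and 2548 for all tested genes with a length, and 56 of the 87 were under 1000 bases. In 6h library 3 the other tested genes had a median log2 difference from the 0h mean of -0.29 where transcripts were under 500 bases and of 0.19 where they were over 4000. In 6h library 2 the same medians were -0.03 and 0.02.

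Genes of matched length give a closer background. At 12h both libraries were below both 0h libraries in 45.4% of the 1389 other tested genes under 1000 bases, and in 53.2% of the 387 of these with a mean of at least 100 FPKM. The corresponding share of the oxidative phosphorylation genes was 94.6% of the 56 under 1000 bases and 96.8% of the 31 of 1000 bases or more. Among the other tested genes of 1000 bases or more it was 30.4%. At 48h the share of the oxidative phosphorylation genes was 66.1% and 74.2%. It was 31.9% of the other short genes, 40.6% of the other short genes at 100 FPKM or more, and 27.2% of the other genes of 1000 bases or more. At 6h the share was 58.9% of the short oxidative phosphorylation genes and 41.9% of the longer ones. It was 28%, 31% and 14.8% of the same other groups, in that order. All 8 later libraries were below both 0h libraries in 36.8% of the 87 genes. This held for 11.9% of the other short genes and 14.7% of those at 100 FPKM or more. At 12h the median log2 difference of genes of 500 to 1000 bases was -0.38 for the 43 oxidative phosphorylation genes and -0.16 for the 1219 others. The gap varied by class and time. At 24h, under 500 bases, the median was -0.20 for the 13 oxidative phosphorylation genes and -0.15 for the 170 others. It was -0.20 for the 49 of these others with a mean of at least 100 FPKM. The part of transcript length in the medians over all members was not tested further.

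**Figure D2:**
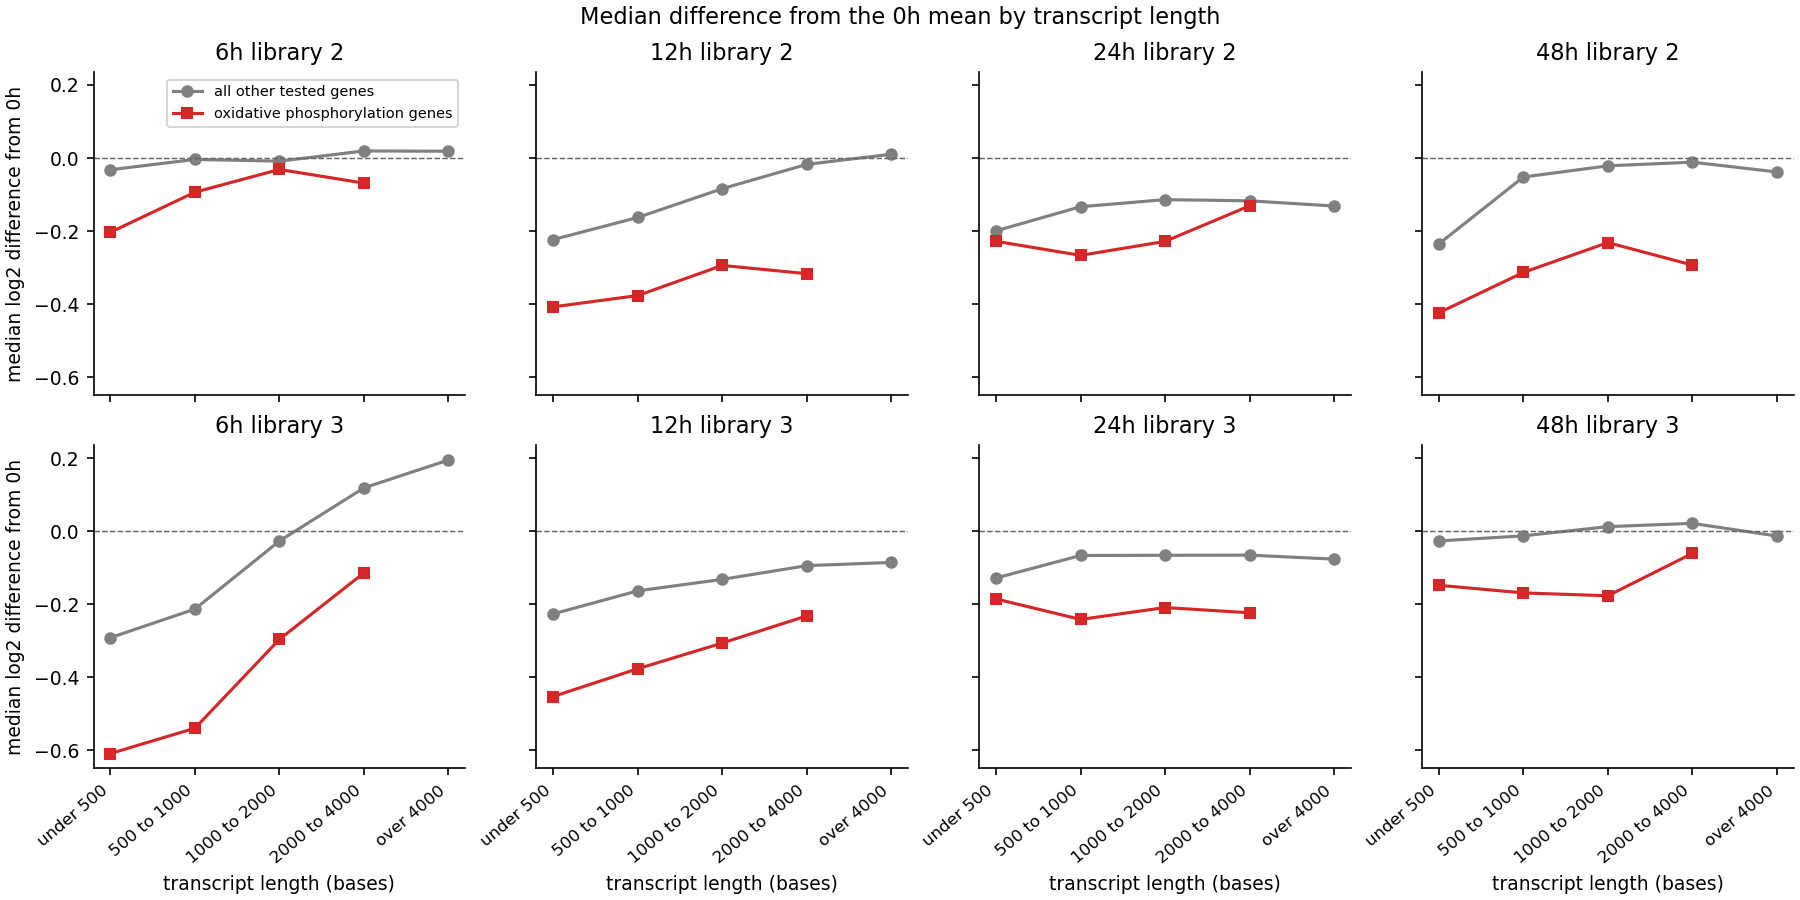
Median log2 difference from the 0h mean (vertical axis) by transcript length class in bases (horizontal axis) in each of the 8 later libraries, for the oxidative phosphorylation genes (red squares) and all other tested genes (grey circles); the class over 4000 bases holds 1 oxidative phosphorylation gene, which is not drawn. The slope with length is steepest in 6h library 3, from -0.29 to 0.19 for the other genes, and the red line lies below the grey line in every class drawn.

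The lowest estimates of the whole set at 48h were those of the 3 muscle forms of complex IV subunits, and their widely expressed partners passed no test. Cox6a2, the heart and skeletal muscle form of subunit 6a, measured 295 and 235 FPKM in the 0h libraries, 149 and 141 at 6h, 104 and 139 at 12h, 170 and 164 at 24h, and 120 and 153 at 48h. All 8 later libraries were below both 0h libraries. It fell at 12h by 1.13 on the log2 scale (SE 0.17, limma adjusted p = 0.0249), to 0.457 of its 0h mean, and at 48h by 0.95 (SE 0.17, adjusted p = 0.00977). Without 0h library 2 or without 48h library 2 the call at 48h was lost, with an adjusted p of at most 0.0841. The call at 12h was lost without either 0h library or 12h library 2, with median-of-ratios scaling and without the filter on low values. Its partner Cox6a1, at 2455 and 2020 FPKM in the 0h libraries, measured 2088 and 2087 at 48h, within the range of its 0h libraries (log2 difference -0.09, SE 0.15, adjusted p = 0.753).

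Cox8b, the muscle form of subunit 8, which is also known from brown fat, measured 674 and 542 FPKM at 0h, 518 and 289 at 6h, 290 and 267 at 12h, 415 and 297 at 24h, and 242 and 258 at 48h. Every later library was below both 0h libraries, and the 6h and 24h libraries were far apart. It fell at 48h by 1.27 on the log2 scale (SE 0.25, limma adjusted p = 0.0145), to 0.412 of the 0h mean. The call was lost when any one of the 0h or 48h libraries was left out, with an adjusted p of at most 0.107. Its partner Cox8a measured 930 and 796 FPKM at 0h and 734 and 896 at 48h, which overlap (log2 difference -0.09, SE 0.18, adjusted p = 0.814).

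Cox7a1, the muscle form of subunit 7a, measured 279 and 239 FPKM at 0h, 286 and 128 at 6h, 117 and 130 at 12h, 164 and 147 at 24h, and 108 and 154 at 48h. From 12h on all its libraries were below both 0h libraries, while 6h library 2 was above both. Its mean at 48h was 0.505 of that at 0h, and the difference did not pass the test (SE 0.31 on the log2 scale, limma adjusted p = 0.0746). Cox7a2, the widely expressed form, measured 267 and 257 FPKM at 0h and 212 and 244 at 48h (log2 difference -0.21, SE 0.15, adjusted p = 0.449).

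Shares within a pair do not depend on the scaling of a library, and of the 3 pairs that of Cox8b passed its test. Cox8b was 41.2% ± 1.06 (SD, n = 2) of Cox8a and Cox8b together at 0h. At the later times, in order, it was 38.1% ± 3.56, 28.6% ± 1.66, 31.8% ± 5.33 and 23.6% ± 1.74. The log2 ratio of Cox8b to Cox8a differed over the 5 times (two-sided exact permutation F test over 945 assignments of the 10 libraries, p = 0.00952, and 0.0286 adjusted over 3 pairs). Without one library at a time the adjusted p lay between 0.019 and 0.165, and it stayed under 0.05 only where a 24h library was the one left out. Cox6a2 made up 10.6% ± 0.224 of its pair at 0h and 6.13% ± 1.01 at 48h, and its log2 ratio to Cox6a1 did not pass (exact permutation p = 0.0402, 0.0603 adjusted). Cox7a1 was 49.7% ± 2.07 of its pair at 0h and 36.2% ± 3.57 at 48h (exact permutation p = 0.143, 0.143 adjusted). In 6h library 2 Cox7a1 made up 54.3% of its pair, more than in either 0h library.

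Summed markers of fast muscle were also lower after 0h, but their course was not that of each muscle form. In 6h library 2 they summed to 10895 FPKM, below both 0h libraries. There Cox6a2, at 149 FPKM, was also below its 0h libraries, while Cox7a1, at 286, was above. From 12h to 24h the median log2 difference of the 24 markers was 0.0006. The 3 muscle forms had estimates of 0.33 to 0.47 in that step, none past the test. In the same step the 3 slow muscle markers that were tested had a median of 0.46, also with none past the test. Of the 24 fast muscle markers 0, 8, 14 and 18 fell at 6h, 12h, 24h and 48h. Of all tested genes 0.8%, 1.94% and 4.12% fell at 12h, 24h and 48h. The median log2 differences of the markers were -0.84, -0.86, -0.95 and -1.37. None passed the test as higher, but the highest estimate was 1.14 at 24h and 1.39 at 48h, each time with both libraries above both 0h libraries. Of 7 slow muscle markers 3 were tested and none passed at any time. Myh7, the slow myosin, stayed under 1 FPKM in every library. The 7 slow markers summed to 431 and 224 FPKM in 0h libraries 2 and 3, and to 456 and 182 at 6h. At 12h, 24h and 48h the sums were 149 and 164, 409 and 185, and 229 and 197. Of 5 brown adipocyte markers the defining gene, Ucp1, reached at most 0.188 FPKM in any library and 2 were tested, of which Cidea rose at 48h. The part of the muscle content of a sample in the values of the 3 muscle forms was not tested. In whole skin, fewer cells of a type and less RNA per cell cannot be told apart. Cox6a2 (7:128205435-128206387 on the minus strand, GRCm38) overlaps Itgad on the other strand, and the strand setting of the counting is not given in the sources used here; Itgad stayed between 0 and 0.0492 FPKM in all libraries.

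**Figure D3:**
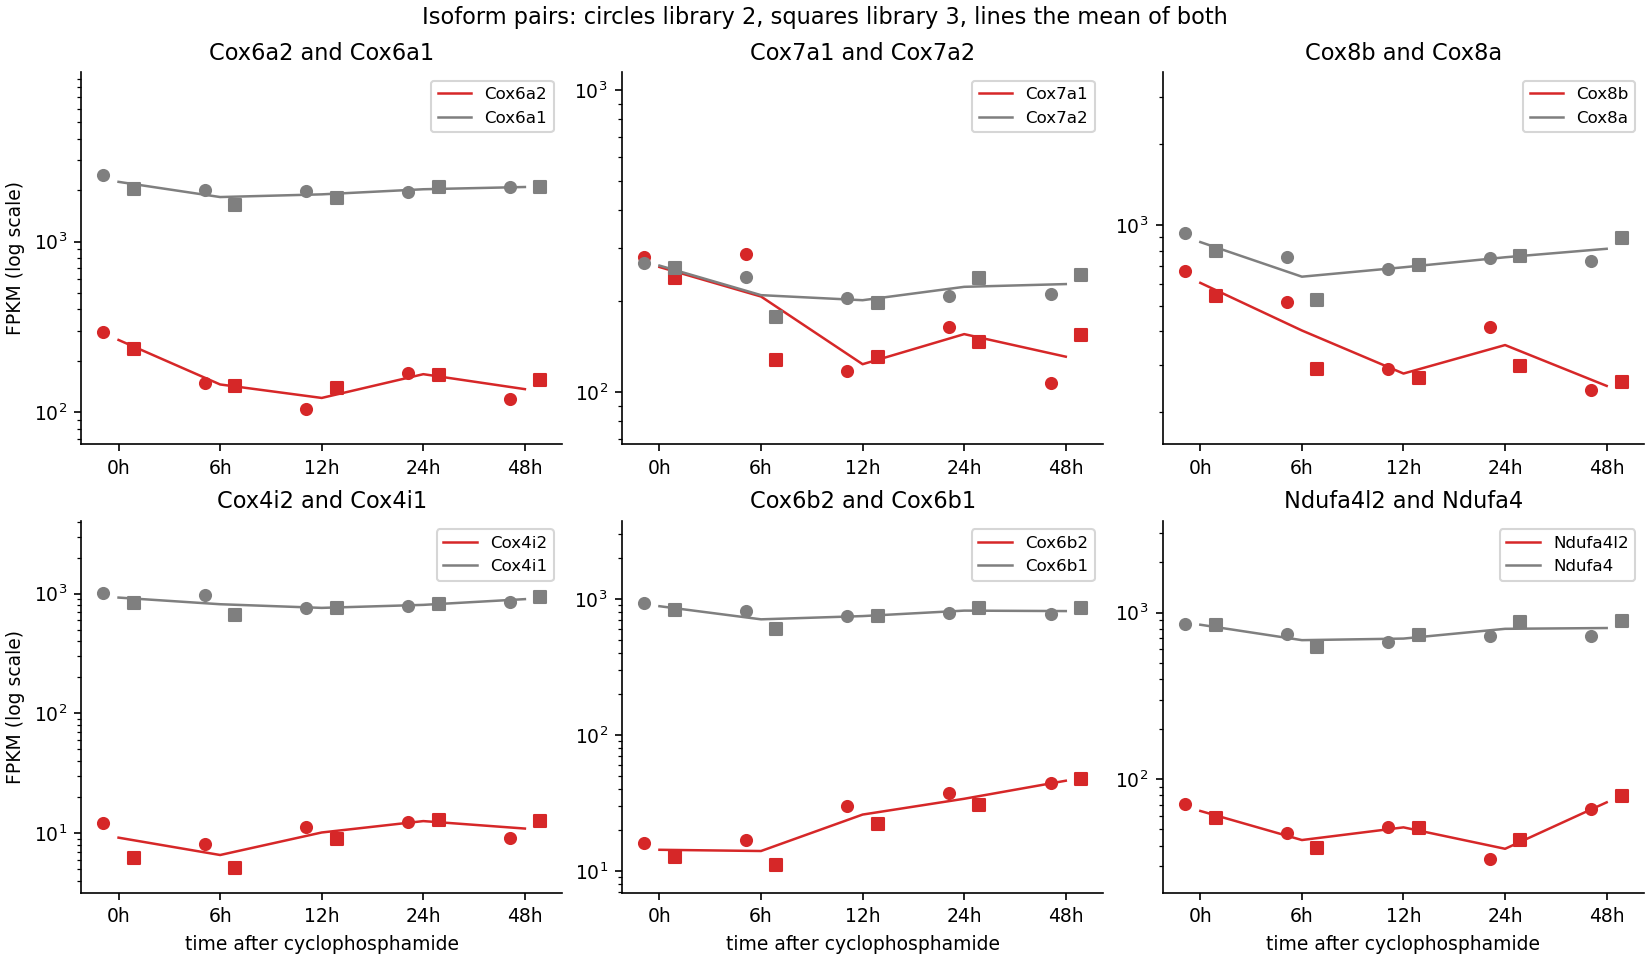
FPKM on a log axis (vertical) by time (horizontal) of 6 isoform pairs; circles are library 2, squares library 3, and lines join the means of both. In the top row both 48h libraries of each muscle form (red) are below its 0h libraries, while Cox7a1 in 6h library 2, at 286 FPKM, is above its partner (grey) at 241; Cox6b2 climbs from 14.3 FPKM at 0h to 46.2 at 48h while Cox6b1 stays within 598 to 939 FPKM.

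The opposite course was that of Cox6b2, the isoform of subunit 6b known as the testis form, which caps complex IV on the intermembrane side. It measured 16.0 and 12.7 FPKM at 0h, 17.0 and 11.1 at 6h, 30.0 and 22.1 at 12h, 37.4 and 30.7 at 24h, and 44.4 and 47.9 at 48h. The 6h libraries spanned those of 0h, all libraries from 12h on were above both, and each group from 12h on lay wholly above the one before it. Cox6b2 rose at 24h by 1.19 on the log2 scale (SE 0.21, limma adjusted p = 0.0222) and at 48h by 1.63 (SE 0.21, adjusted p = 0.00204), to 3.22 times its 0h mean. The rise at 48h held without any one library and in 8 other settings, not counting fits on the 2 times alone. Over those 8 settings the limma adjusted p was at most 0.0117. The call at 24h was lost without either 0h or either 24h library, and without the filter on low values. Cox6b1, its widely expressed partner, was at 939 and 832 FPKM at 0h and at 772 and 859 at 48h (log2 difference -0.12, SE 0.16, adjusted p = 0.698). Cox6b2 was therefore 1.59% ± 0.123 (SD, n = 2) of the pair at 0h and 5.36% ± 0.112 at 48h. The gene lies at 7:4751792-4753094 on the minus strand (GRCm38), and no other annotated gene overlaps it.

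The upstream sequences of 4 of these genes are shown because they belong to the genes that moved furthest and to a partner that did not pass the test. Each is the 250 bases before the RefSeq start in GRCm38.p6, 5′ to 3′, with matches to the searched motifs in capitals. Cox6a1 (chr5:115348959-115349208, minus strand), the widely expressed partner of Cox6a2, holds GCGCNNGCGC, the core of sites of the factor NRF1, at 2 places, and 1 CCAAT box. Cox7a1 (chr7:30183921-30184170, plus strand) and Cox6b2 (chr7:4753095-4753344, minus strand) each hold 2 CCAAT boxes on the other strand (ATTGG), and Cox8b (chr7:140900447-140900696, minus strand) holds 1 CAGCTG E-box. The partners of these, not shown, differed: Cox7a2 held none of the searched motifs, Cox8a 1 CCAAT box and Cox6b1 2. No RefSeq promoter was found for Cox6a2, so the shares below do not cover it.
Cox6a1: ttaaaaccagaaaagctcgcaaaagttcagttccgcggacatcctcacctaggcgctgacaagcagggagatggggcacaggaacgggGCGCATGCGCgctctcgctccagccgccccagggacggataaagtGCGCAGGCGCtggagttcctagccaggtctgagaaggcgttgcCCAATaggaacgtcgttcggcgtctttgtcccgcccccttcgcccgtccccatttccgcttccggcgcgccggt
Cox7a1: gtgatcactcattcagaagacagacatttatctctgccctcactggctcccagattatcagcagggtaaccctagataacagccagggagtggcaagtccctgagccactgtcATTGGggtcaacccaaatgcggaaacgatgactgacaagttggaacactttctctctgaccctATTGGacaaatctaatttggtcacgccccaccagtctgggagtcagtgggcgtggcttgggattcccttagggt
Cox8b: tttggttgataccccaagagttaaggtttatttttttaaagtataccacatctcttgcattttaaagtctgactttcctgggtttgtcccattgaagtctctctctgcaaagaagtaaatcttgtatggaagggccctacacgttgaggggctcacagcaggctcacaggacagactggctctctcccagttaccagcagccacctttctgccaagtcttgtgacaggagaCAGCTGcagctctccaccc
Cox6b2: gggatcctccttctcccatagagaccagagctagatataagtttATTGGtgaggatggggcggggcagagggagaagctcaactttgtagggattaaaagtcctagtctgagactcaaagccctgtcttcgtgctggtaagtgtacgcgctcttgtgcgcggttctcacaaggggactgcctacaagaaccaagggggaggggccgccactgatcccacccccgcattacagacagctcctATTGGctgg
Both strands were searched for these motifs, for the TATA box and for the MEF2 motif, and a MEF2 match can also hold a TATA box. RefSeq promoters were found for 74 of the 89 genes, 80 promoters in all. GCGCNNGCGC was in 20% of these 80 and in 4.98% of the 32851 promoters of the whole table. The median share of G and C was 56.6% in these 80 and 52.4% in all promoters, and motif shares were not matched for it. The CCAAT box was in 41.2% and 33.8% and the E-box in 7.5% and 13%. The TATA box, searched as TATAAA, was in 8.75% and 12.4%, and the MEF2 motif in 0% and 0.508%. A match is a description of these letters and not a bound site.

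Among the other variant subunits, Ndufa4l2, a paralog of Ndufa4 known to be induced by low oxygen, was lowest at 24h. It measured 70.8 and 58.2 FPKM at 0h, 47.7 and 38.6 at 6h, 51.5 and 51.3 at 12h, 33.3 and 43.2 at 24h, and 66.1 and 79.2 at 48h. The libraries from 6h to 24h were all below both 0h libraries, and those of 48h overlapped them. It fell at 24h by 0.74 on the log2 scale (SE 0.17, limma adjusted p = 0.0433) and was higher at 48h than at 24h by 0.91 (SE 0.17, adjusted p = 0.0269), the one gene of the 87 past the test in that step, in which 2.26% of all genes passed, 1.22% in this direction. Of the 10 fits that each left out 1 library, the 2 without a 6h library kept the call at 24h. That call was also lost under median-of-ratios scaling, quantile normalization, without the hair genes and without the filter on low values. The call in the step from 24h to 48h was lost when 24h library 2 or one of the 48h libraries was left out. It was also lost under median-of-ratios scaling, without the filter on low values and in the fit on the 2 times alone. Ndufa4l2 (10:127514967-127517154 on the plus strand, GRCm38) overlaps Shmt2 on the other strand, whose FPKM ranged from 20.2 to 34.2 and had its lowest mean, 21.3, at 24h as well; without a known strand the reads of both cannot be told apart. Ndufa4 itself was at 849 and 840 FPKM at 0h and 725 and 872 at 24h. Cox4i2, the form of subunit 4 best known from lung, lay at 5.06 to 12.7 FPKM in all libraries and passed no test.

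Of the 4 subunits of complex II, Sdhb passed the test at 48h and Sdhd the F test over all times; differences among the subunits were not tested. Sdhb, the iron-sulfur subunit, measured 140.9 and 141.1 FPKM at 0h, 131 and 104 at 6h, 109 and 120.3 at 12h, 130.0 and 120.5 at 24h, and 94.6 and 104 at 48h. All 8 later libraries were below both 0h libraries, and both 48h libraries were below those of 12h and 24h. Sdhb fell at 48h by 0.50 on the log2 scale (SE 0.13, limma adjusted p = 0.0442), to 0.705 of its 0h mean. The call was kept in 2 of the 10 fits that each left out 1 library, those without a 6h library. It was also lost under median-of-ratios scaling, without the hair genes and without the filter on low values. Sdhaf3, an assembly factor for the iron-sulfur subunit, measured 17.3 and 13.5 FPKM at 0h, 13.9 and 11.1 at 6h, 9.81 and 8.55 at 12h, 13.2 and 12.2 at 24h, and 8.07 and 9.67 at 48h. Both 12h and both 48h libraries were below all others. It fell at 48h by 0.73 (SE 0.16, limma adjusted p = 0.0242). This call was lost without 0h library 2 or one of the 48h libraries, and without the filter on low values.

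Sdhd, a membrane anchor of complex II, was low in the middle of the course and back at its starting level at the end. It measured 83.4 and 77.3 FPKM at 0h, 72.6 and 61.6 at 6h, 52.9 and 53.5 at 12h, 54.2 and 59.9 at 24h, and 80.0 and 78.4 at 48h. The 12h and 24h libraries were below all of the others, and the 48h libraries lay within the range of 0h. Its level differed over the 5 times (limma F test, adjusted p = 0.0323), while the log2 differences of -0.59 at 12h (SE 0.12, adjusted p = 0.0502) and -0.49 at 24h (SE 0.12, adjusted p = 0.0558) each missed the threshold. Sdhc, the other anchor, had log2 differences of -0.38 at 12h, -0.41 at 24h and -0.15 at 48h, and Sdha, the flavoprotein, of -0.41, -0.25 and -0.28; none passed the test. The assembly factor Sdhaf1 was the one tested gene with none of its 8 later libraries below both 0h libraries, at 38.3 and 29.9 FPKM at 0h and 39.6 and 39.0 at 48h.

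**Figure D4:**
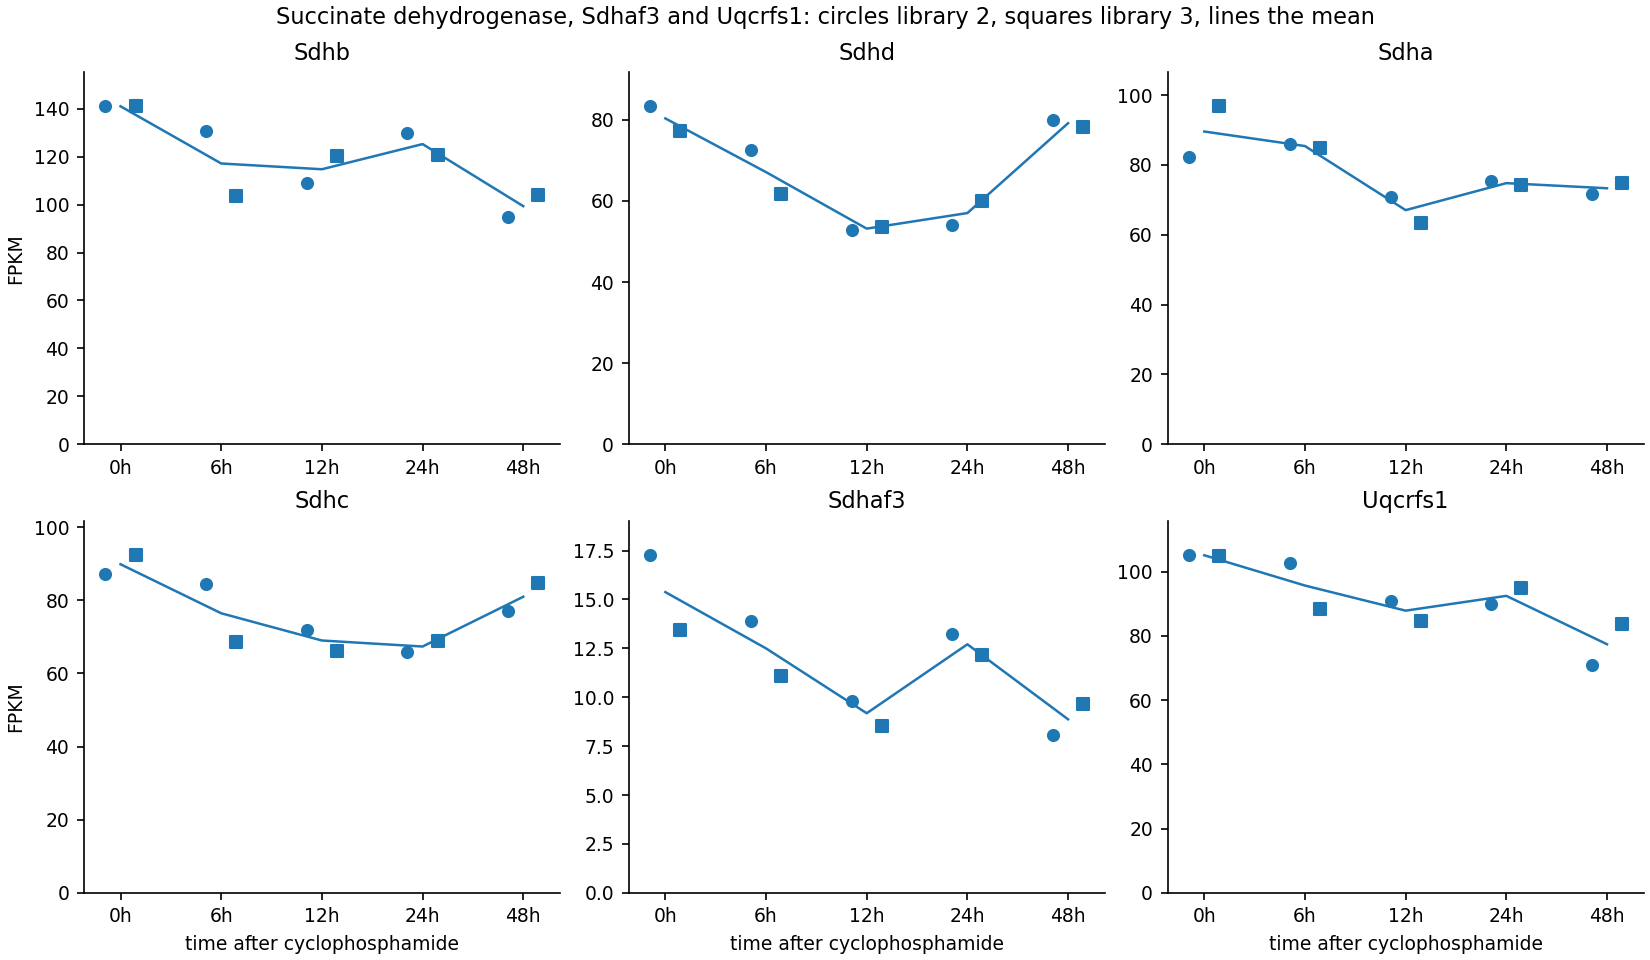
FPKM (vertical axis, from 0) by time (horizontal axis) of the 4 subunits of complex II, of Sdhaf3 and of Uqcrfs1; circles are library 2, squares library 3, and lines join the means. Sdhd is lowest at 12h and 24h, at 52.9 to 59.9 FPKM, and is at 78.4 and 80.0 at 48h, and Sdhb is lowest at 48h, at 94.6 and 104.

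Of the genes placed by symbol under complexes I, III and V, Ndufa4l2 at 24h was the one past the test against 0h. At 12h the estimates of all these genes were below 0 on the FPKM as deposited. Of the 38 complex I genes 37 had both 12h libraries below both 0h libraries (32.3% of all tested genes), with a median log2 difference of -0.34, and 27 had so at 48h (28% of all), with a median of -0.22. Ndufs1, Ndufs3, Ndufs7, Ndufs8, Ndufv1 and Ndufv2, core subunits of its electron path, had differences of -0.39 to -0.28 at 12h and -0.35 to -0.07 at 48h, and these 6 had separate libraries at both times. The lowest estimate of complex I at 48h was that of Ndufb2, an accessory subunit, at 342 and 326 FPKM at 0h and 200.2 and 253 at 48h (log2 difference -0.57, SE 0.17, limma adjusted p = 0.0666). Ndufs5, another accessory subunit, stood apart at 24h: it measured 201 and 235 FPKM at 0h, 319.6 and 290.4 at 24h and 145 and 199.9 at 48h. Its 24h libraries were the highest of all 10, but its log2 difference of 0.48 (SE 0.24, adjusted p = 0.284) did not pass the test; it was chosen for mention after its values were seen.

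All 8 complex III genes had separate libraries below 0h from 12h to 48h, where 32.3%, 37.2% and 28% of all tested genes had so at 12h, 24h and 48h, with a median log2 difference of -0.34 at 12h and -0.30 at 48h. Uqcrfs1, the Rieske iron-sulfur protein, measured 105.3 and 105.0 FPKM at 0h and 71.0 and 83.8 at 48h (log2 difference -0.44, SE 0.12, limma adjusted p = 0.055). The core proteins Uqcrc1 and Uqcrc2 had differences of -0.14 and -0.35 at 48h. In complex V 17 of 17 genes had separate libraries below 0h at 12h and 12 of 17 at 48h, against the same 32.3% and 28% of all genes, with medians of -0.43 and -0.31. Atp5a1, Atp5b and Atp5c1, the alpha, beta and gamma subunits of the catalytic part, had log2 differences of -0.36, -0.27 and -0.31 at 12h and of -0.27, -0.23 and -0.24 at 48h. Atp5e, the highest gene, was at 2590 and 2050 FPKM at 0h and at 1490 and 1788 at 48h (log2 difference -0.50, SE 0.18, adjusted p = 0.123). Atp5g1, one of 3 genes for the membrane ring subunit, was at 352 and 331 FPKM at 0h, 224 and 227 at 12h and 301 and 334 at 48h. Of its fellows, Atp5g2 and Atp5g3 had differences of -0.28 and -0.44 at 12h against -0.59 for Atp5g1; differences among the 3 were not tested.

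**Figure D5:**
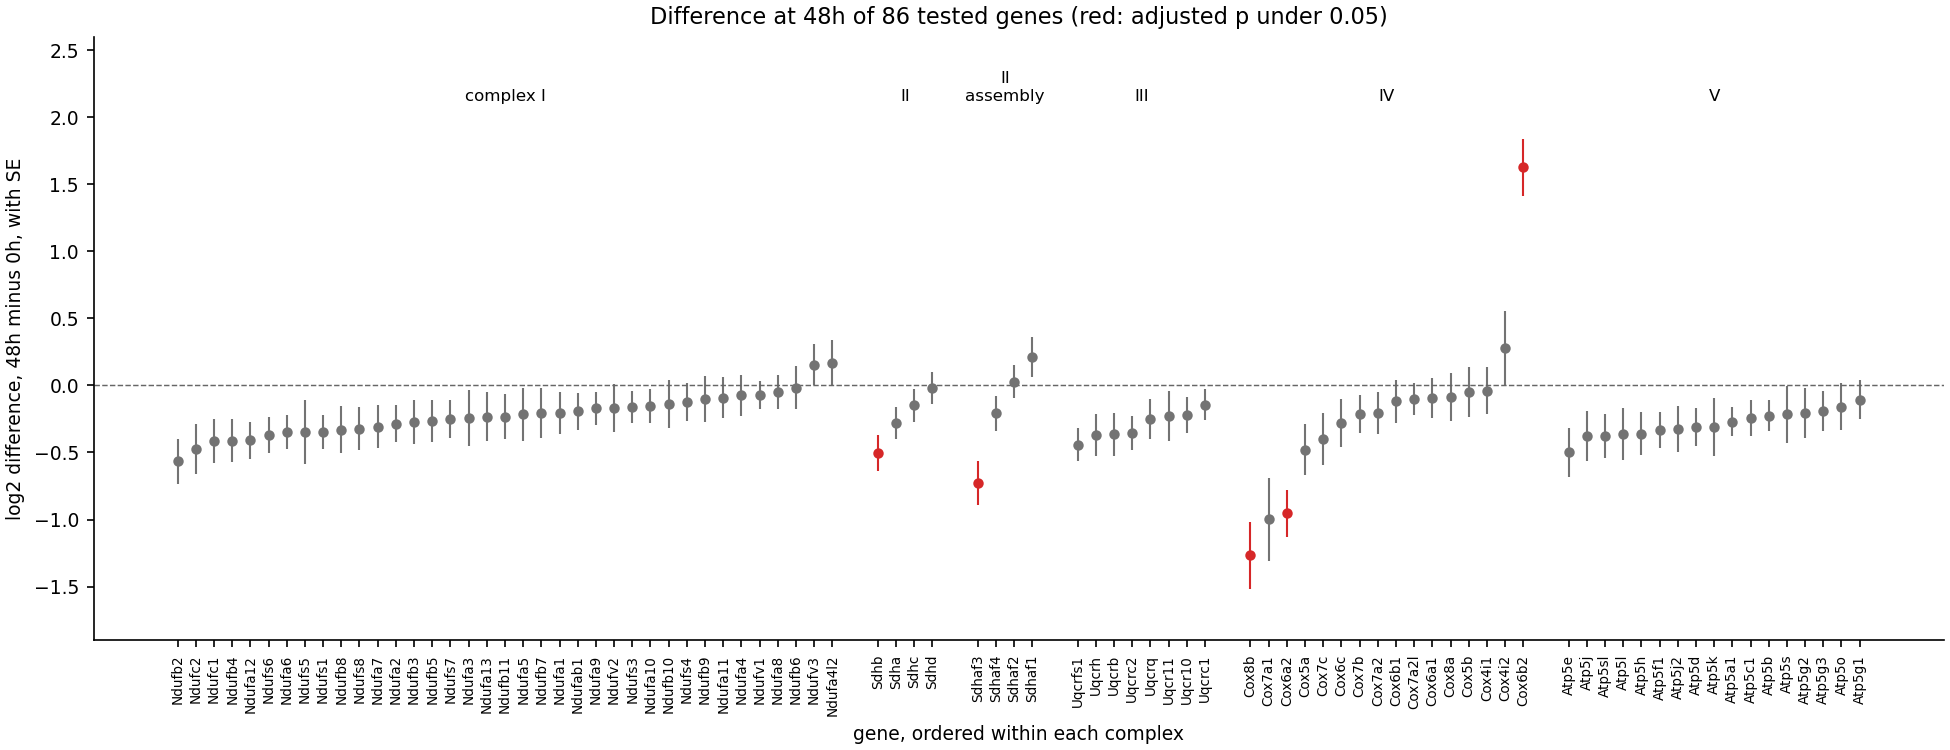
Log2 difference between 48h and 0h with its SE (vertical axis) for 86 tested genes (horizontal axis, ordered within each complex); red points had an adjusted p under 0.05. Most points lie between -0.57 and 0.28, and Cox8b, Cox7a1, Cox6a2 and Sdhaf3 below and Cox6b2 above lie outside that range.

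Between neighbouring later times little passed the test. From 6h to 12h none of the 87 genes passed (1 higher and 7 lower at an unadjusted p under 0.05, against 2.24% and 9.18% of all genes), and none of all 13625 did (0%), with 66 of the 87 estimates below 0. The median log2 difference over all tested genes in this step was -0.12, and -0.00 after median-of-ratios scaling, where that of the 87 genes moved from -0.08 to 0.05, with 59 estimates above 0. Without 6h library 2 the median of the 87 genes was 0.12, and without 6h library 3 it was -0.28. From 12h to 24h none passed (4 higher and 1 lower at an unadjusted p under 0.05, against 5.38% and 4.52% of all genes), with 0.022% of all genes past the test. Yet 77 of the 87 estimates were above 0 in that step, with a median of 0.14 against -0.02 over all genes. In 58 genes both 24h libraries were above both 12h libraries, against 19.4% of all genes. Under 1000 bases this held for 69.6% of the oxidative phosphorylation genes and 27.4% of the other tested genes. From 24h to 48h the estimates were divided, 40 above 0 and 47 below, around a median of -0.01. Without 48h library 2 that median was 0.06, with 67 above 0, and without 48h library 3 it was -0.09.

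The lists of other mitochondrial genes also had medians below 0 from 12h to 48h, with few calls. Over all tested genes the medians were -0.07, -0.10 and -0.01 at 12h, 24h and 48h, and 0.8%, 1.94% and 4.12% fell. The fatty acid oxidation list, at -0.10 at 24h, was then at the level of all tested genes. At 24h the median log2 difference was -0.26 for mitochondrial ribosomal proteins, -0.26 for the citric acid cycle list and -0.27 for regulators. It was -0.24 for the 87 genes, and -0.23, -0.18 and -0.15 for import genes, assembly factors and electron carriers. At 48h the citric acid cycle list, at -0.28, was below the 87 genes, at -0.23, and the other lists were above them. Of 77 mitochondrial ribosomal protein genes none passed at 12h (median log2 difference -0.24), Mrps11 fell at 24h and Mrpl53 at 48h. Of 17 genes of the citric acid cycle and pyruvate dehydrogenase, Pdhx fell at 12h and Idh3a, a subunit of isocitrate dehydrogenase, fell at 48h by 0.50 (limma adjusted p = 0.029); the median at 12h was -0.30. Of 14 genes of electron carriers and quinone synthesis, Cycs, somatic cytochrome c, fell at 48h by 0.44 (adjusted p = 0.0462), from 55.0 and 62.0 FPKM to 43.9 and 41.9. Of 35 assembly factors Ndufaf6 fell at 48h, and of 23 import genes tested none passed at any time. The 10 tested regulators of mitochondrial genes passed no test; Ppargc1a, a coactivator of mitochondrial genes, stayed under 1 FPKM in all libraries.

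The largest decreases among the other genes of energy supply at 48h were those of Ckmt2, Pgam2 and Eno3. At that time 4.12% of all tested genes fell and 4.8% rose. Of 8 mitochondrial carriers and creatine kinases 2 fell at 48h: Ckmt2, the creatine kinase of muscle mitochondria, from 52.1 and 46.0 FPKM to 7.75 and 8.76 (log2 difference -2.43, SE 0.18, limma adjusted p = 0.000168), and Slc25a4, the ATP and ADP carrier most abundant in heart and skeletal muscle, from 643 and 571 to 307 and 365 (adjusted p = 0.0149). Of 19 glycolytic genes 4 fell at 48h and 1 rose. Those that fell were Pgam2, Eno3 and Pfkm, which are muscle forms, and Tpi1; Pfkp, a form not typical of muscle, rose by 0.61 (adjusted p = 0.0326). Of 15 genes of fatty acid oxidation 2 fell at 48h, Cpt1b, the muscle carnitine palmitoyltransferase, by 0.85 (adjusted p = 0.0123), and Acadm, medium-chain acyl-CoA dehydrogenase, by 0.50 (adjusted p = 0.0392). Markers of dividing cells had another course: of 12, 2 fell at 12h and 5 at 24h, and none passed at 6h or 48h. Of all tested genes 0.8% fell at 12h and 1.94% at 24h. The 12 markers summed to 319 and 321 FPKM at 0h, 123 to 199 from 6h to 24h, and 286 and 298 at 48h. Of 10 fat cell markers Adrb3 was the one past the test, lower at 12h and 24h. Markers of red blood cells summed to between 2.70 FPKM (48h library 3) and 920.2 (6h library 2), and none of the 3 tested passed. The part of any of these cell types in the differences from 0h was not tested.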

How the data were processed

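RNA-seq of full-thickness back skin was used as 1 deposited table of FPKM with 10 value columns, 2 per time. Per the submitters' processing notes the authors used TopHat2 2.1.1 and Cufflinks 2.2.1 with the mm10 build, so the deposited FPKM are already normalized for length and library size; no source used here gives the annotation or the strand setting. Of 24358 rows, 27 whose symbol had become a date were left out. Column names match the labels by time but not by replicate number, so each column was placed by time. Depth is unknown, and 2 libraries per time limit precision.

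From the FPKM, log2(FPKM + 1) was computed for genes that 2 or more libraries held at 1 FPKM or more, and limma 3.58.1 (R 4.3.3; one mean per time, empirical Bayes with a trend, 5 residual degrees of freedom) gave each contrast with 0h, the steps between later times and an F test. The script was tested on simulated data. Isoform ratios used an exact permutation F test whose smallest p is 0.00106. Transcript lengths and coordinates came from GENCODE for GRCm38; 99.48% of the tested genes had a length.

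Genes were named if they passed any test, belonged to an isoform pair or to the core subunits, were the highest or lowest at 0h or the furthest from 0 at 48h in a complex, or were up to 4 genes past the test per related list. One gene's own values are not reported here. The genes, the related lists and the markers were chosen with earlier results of these data known. Alternatives were no filter, a mean of at least 5 FPKM, a pseudocount of 0.1, median-of-ratios scaling, quantile normalization, leaving out hair genes, each pair of times alone, each library left out in turn and, added after seeing the data, both 6h libraries left out and a block by column number.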

Additional observations from a re-analysis of the deposited data

How the results depend on the processing

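No gene past the test changed direction under any alternative run. The medians over the 87 genes in 2 of the steps did: that from 6h to 12h, -0.08, was 0.05 with median-of-ratios scaling and 0.12 without 6h library 2, and that from 24h to 48h, -0.01, was 0.02 without 24h library 3 and 0.06 without 48h library 2. Of the counts of genes past the test, 12h had 1, 24h 2, 48h 5, the step from 24h to 48h 1 and the F test 4. Without the filter on low values these were 0, 0, 3, 0 and 1, the 3 at 48h being Cox6a2, Cox6b2 and Cox8b, with 4.64% of all genes past the test at 48h. With median-of-ratios scaling they were 0 at 12h, 1 at 24h (3.42% of all genes), 4 at 48h (9.08%), 0 in the step from 24h to 48h and 2 in the F test. With a mean of at least 5 FPKM there were 2 at 12h (1.3% of all genes), with quantile normalization 1 at 24h (3.39%) and 9 at 48h (10.2%), and without hair genes 1 at 24h (2.79%). Fits on the 2 times alone gave 3 at 12h (1.06% of all genes), 1 at 24h (1.79%) and 0 for the step from 24h to 48h (0%). Leaving out both 6h libraries, chosen after seeing the data, gave 6, 5 and 9 at 12h, 24h and 48h and 2 in the step from 24h to 48h, with 1.79%, 4.36%, 10.3% and 2.61% of all genes. The cause of these shifts was not tested.

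With each library left out in turn, the count ranged from 0 to 6 at 12h, 0 to 5 at 24h, 1 to 9 at 48h, 0 to 2 in the step from 24h to 48h and 1 to 9 in the F test, and stayed at 0 at 6h, from 6h to 12h and from 12h to 24h. The highest counts came without a 6h library, where 10.3% of all genes passed at 48h, and the count of 1 at 48h came without 0h library 2 or 48h library 2. A time left with 1 library was assumed to vary like the others. The adjusted p of the isoform ratios ranged from 0.0571 to 0.237 for Cox6a2 to Cox6a1, 0.054 to 0.274 for Cox7a1 to Cox7a2 and 0.019 to 0.165 for Cox8b to Cox8a.

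The columns carry the numbers 2 and 3 at every time, which are not those of the labels (1 and 2), and no label says that a number marks a shared animal, batch or day. Deviations of the libraries numbered 2 from the mean of their time correlated across genes by -0.10 to 0.22 between times, above 0.1 in 5 of the 10 pairs of times. A replicate block by column number, added after seeing the data, gave 4 calls at 12h (2.36% of all genes), the added ones being Cox6b2, Cox8b and Sdhd, and 6 in the F test (10.1%). The block left the counts at 0, 2 and 5 at 6h, 24h and 48h, at 0, 0 and 1 in the steps between later times, and the isoform ratios on the same side of the threshold. The depth is unknown, so no interval for counting error was given.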
